A study of Mus musculus with 8 samples.

Results

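The genes described here are 10 hepatocyte genes that are active around the central vein of the liver lobule and depend on Wnt signalling. They are Glul, Oat, Rhbg, Slc1a2, Lgr5, Axin2, Tbx3, Rnf43, Znrf3 and Gulo. They were chosen by symbol, each read from the brightest array row assigned to that gene alone, and all 10 were found among the 22180 genes measured. Arrays of whole liver do not show position, so the zone of each gene is background knowledge. The comparison asks whether the fall of Rhbg in knockout liver went with falls of the other genes that Wnt drives there.

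RNA of 8 mouse livers was hybridised to single-colour Affymetrix Mouse Gene 2.0 arrays. The mice were 3 months old and ate normal chow, and the study's design text gives all of them floxed NCOR. The virus, an adeno-associated virus (AAV) given through a vein, carried GFP in the 4 controls (WT, AAV-GFP) and Cre recombinase in the 4 knockouts (NCOR_KO, AAV-Cre). Livers were taken 2 weeks after the virus, at 5 pm (ZT10). The sample labels call the controls wild-type, so whether they carry the floxed allele is not settled. The promoter that drives Cre is not given in the sources used here, and Cre and loss of NCOR cannot be told apart, since every knockout and no control received Cre. NCOR is a corepressor that joins nuclear receptors to the deacetylase HDAC3. Its own gene was not analysed here, so the labels were not checked against it. The labels call the replicates biological without linking them to animals, and the p-values rest on the spread among the arrays alone.

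In the liver lobule, endothelial cells of the central vein secrete Wnt ligands and R-spondins, which keep β-catenin stable in the hepatocytes around the vein. With TCF factors, β-catenin then turns on genes for making glutamine, taking up glutamate and ammonium, and oxidising drugs. R-spondins act through LGR receptors by removing RNF43 and ZNRF3, membrane ubiquitin ligases that clear Wnt receptors, while AXIN2 is a scaffold of the complex that destroys β-catenin. Several of these regulators are themselves induced by Wnt, which makes them common readouts of the pathway.

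Hepatocyte markers were abundant in every liver. The 11 of 12 that were measured had a median log2 change (knockout minus control) of -0.01, and 0 rose or fell at a limma adjusted p under 0.05. At an unadjusted p under 0.05 there was 1, Asgr1, an asialoglycoprotein receptor subunit (-0.15, adjusted p = 0.239). Of all genes 15.9% reached that level in either direction. Knockout values lay wholly below the control values for 3 of the 11 markers, against 5.49% of all genes. They lay wholly above them for 0, against 4.9% of all genes. Median array intensity was 41.0 to 44.1. In limma's weighting of the arrays WT replicate 2 counted least (0.538) and NCOR_KO replicate 2 most (1.48). The number of arrays, 4 a group, limits the precision of every value.

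Of the 10 pericentral genes, Rhbg and Gulo fell in knockout liver, 0 rose and 8 did not pass the threshold. Among all genes tested 0.834% fell and 0.816% rose. The knockout values of 3 members (Rhbg, Gulo and Rnf43) lay wholly below the control values, where 5.49% of all genes did so, and 0 lay wholly above them, against 4.9% of all genes. At an unadjusted p under 0.05, which 15.9% of all genes reached in either direction, the members lower were 4, those 3 and Lgr5, and 0 were higher. The other pericentral and the periportal lists had 7 of 20 and 9 of 20 at that level. The estimate was below 0 for 9 members and above 0 for Tbx3 alone, and the median over the 10 was -0.10 against 0.01 for all genes. In bulk liver, fewer pericentral hepatocytes and less RNA in each of them cannot be told apart. The fall of Rhbg was known when the genes were chosen, so its test is no independent evidence.

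**Figure D1:**
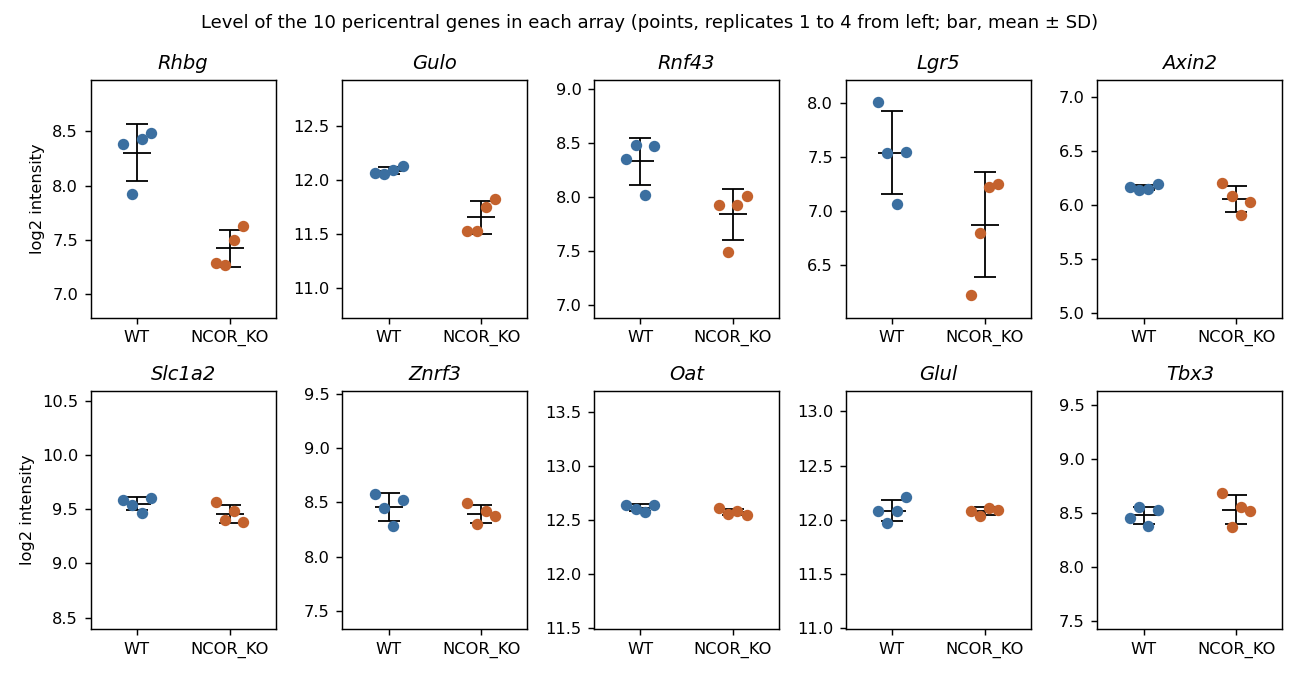
Log2 intensity (vertical axis, each panel spanning the same number of log2 units) of the 10 pericentral genes in the 4 WT and 4 NCOR_KO arrays. Points are arrays in order of replicate number and bars show the mean ± SD. The groups are apart for Rhbg, Gulo and Rnf43 and overlap for the other 7 genes.

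The ammonium transporter gene Rhbg, whose product lets hepatocytes at the end of the blood's path take up leftover ammonium, had the largest fall of the 10. Its log2 intensity was 8.38, 7.92, 8.43 and 8.49 in WT replicates 1 to 4 and 7.28, 7.27, 7.50 and 7.63 in NCOR_KO replicates 1 to 4. The lowest control, WT replicate 2, still lay above the highest knockout. The level went from 8.30 ± 0.26 to 7.42 ± 0.17 (SD, n = 4), which is 1.85-fold lower, with a log2 change of -0.89 ± 0.13 (SE, limma adjusted p = 0.00921) and a 95% interval from -1.17 to -0.60. It was the 27th lowest change of the 22180 genes. In all 15 refits under other settings Rhbg passed, with the change between -1.01 (without WT replicate 2) and -0.82.

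Gulo encodes the last enzyme of vitamin C synthesis, which mice have and humans lack. Its log2 intensity was 12.07, 12.06, 12.09 and 12.13 in the controls and 11.53, 11.53, 11.75 and 11.82 in the knockouts. The controls lay close together and every knockout was lower. The mean fell from 12.09 ± 0.03 to 11.66 ± 0.15 (SD, n = 4), or 1.35-fold, with a log2 change of -0.43 ± 0.08 (SE, limma adjusted p = 0.0275). Every refit gave a change between -0.49 and -0.39, but the call was lost in 5 of the 8 that left out an array: leaving out WT replicate 1 (adjusted p = 0.0646), WT replicate 3 (0.0677), WT replicate 4 (0.0799), NCOR_KO replicate 1 (0.0725) or NCOR_KO replicate 2 (0.0880) ended it.

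Glul, Oat and Slc1a2 serve the same handling of nitrogen as Rhbg. Glul encodes glutamine synthetase, which binds ammonium into glutamine and is the classic marker of the hepatocytes next to the central vein. Its log2 intensity was 12.08, 11.97, 12.08 and 12.20 in the controls and 12.08, 12.03, 12.11 and 12.09 in the knockouts, so the knockouts lay inside the control range. The log2 change was -0.00 ± 0.06 (SE, limma adjusted p = 0.981), with a 95% interval from -0.14 to 0.13.

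Oat encodes ornithine aminotransferase, which turns ornithine towards glutamate. It read 12.63, 12.60, 12.57 and 12.64 in the controls and 12.61, 12.56, 12.59 and 12.54 in the knockouts. The groups overlapped, and the log2 change of -0.04 ± 0.05 did not pass (limma adjusted p = 0.765). Slc1a2 encodes GLT-1, a transporter that brings glutamate into the cell. It read 9.59, 9.54, 9.47 and 9.60 in the controls and 9.57, 9.40, 9.48 and 9.39 in the knockouts. NCOR_KO replicates 2 and 4 lay below every control and replicates 1 and 3 within the control range, and the change was -0.09 ± 0.06 (SE, limma adjusted p = 0.515).

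Lgr5, a receptor for R-spondins, was lower on average but uneven. Its log2 intensity was 8.01, 7.54, 7.07 and 7.55 in the controls and 6.22, 6.80, 7.23 and 7.26 in the knockouts. NCOR_KO replicates 1 and 2 lay below every control, while replicates 3 and 4 lay above WT replicate 3. The mean was 7.54 ± 0.38 in control and 6.88 ± 0.48 in knockout liver (SD, n = 4), a log2 change of -0.67 ± 0.24 with a limma adjusted p of 0.209 and a 95% interval from -1.20 to -0.14. Another array row assigned to Lgr5 was dim, at 4.41 to 4.89 where the median gene lay at 5.88, and differed by 0.11 ± 0.09 (adjusted p = 0.617 over all single-gene rows). The mean of both rows gave -0.28 (adjusted p = 0.362).

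Rnf43, a ubiquitin ligase that removes Wnt receptors from the membrane, also had a low estimate. It read 8.35, 8.48, 8.01 and 8.47 in the controls and 7.93, 7.49, 7.93 and 8.004 in the knockouts. The groups did not overlap, though WT replicate 3 and NCOR_KO replicate 4 nearly met. The level was 8.33 ± 0.22 in control and 7.84 ± 0.23 in knockout liver (SD, n = 4), a log2 change of -0.49 ± 0.13 that missed the threshold (limma adjusted p = 0.0985, 95% interval from -0.78 to -0.20, not adjusted over genes). In the 15 refits the adjusted p ran from 0.0573 to 0.202.

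Its paralog Znrf3 encodes a ligase of the same role. Znrf3 read 8.57, 8.45, 8.29 and 8.52 in the controls and 8.50, 8.30, 8.42 and 8.38 in the knockouts. The knockouts lay inside the control range, and the change was -0.06 ± 0.08 (SE, limma adjusted p = 0.738).

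Axin2 read 6.16, 6.14, 6.14 and 6.19 in the controls and 6.21, 6.08, 5.91 and 6.02 in the knockouts. NCOR_KO replicate 1 exceeded every control and the other knockouts lay below them, so the groups overlapped (log2 change -0.10 ± 0.07, limma adjusted p = 0.498). Another row assigned to Axin2, at 5.22 to 5.66, differed the other way, by 0.14 ± 0.10 (adjusted p = 0.528 over all single-gene rows), so the direction for Axin2 depends on the row and flipped to 0.02 with the mean of both.

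Tbx3, a T-box transcription factor induced by Wnt in liver, read 8.45, 8.55, 8.38 and 8.53 in the controls and 8.69, 8.37, 8.55 and 8.52 in the knockouts. Its highest and its lowest value both came from knockouts, and the change was 0.05 ± 0.08 (SE, limma adjusted p = 0.783).

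**Figure D2:**
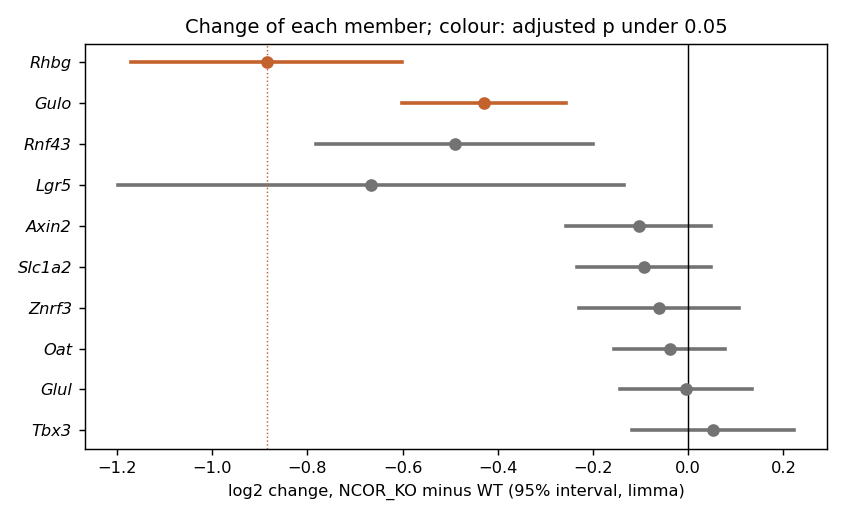
Log2 change (knockout minus control, horizontal axis) of the 10 genes with 95% intervals from limma, coloured where the adjusted p was under 0.05, with the estimate of Rhbg as a dotted line. The intervals of Axin2, Slc1a2, Znrf3, Oat, Glul and Tbx3 lie wholly above that of Rhbg. Those of Rnf43 and Lgr5 reach into it. That of Gulo barely does, with a lower bound of -0.602 where the upper bound of Rhbg is -0.601.

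The intervals divide the other 9 genes. For 6 of them (Axin2, Slc1a2, Znrf3, Oat, Glul and Tbx3) the whole interval lay above the upper bound for Rhbg, -0.60, and the lowest bound among the 6 was -0.26 (Axin2). The difference between the change of Rhbg and that of Glul, taken within each array, was -0.88 ± 0.12 (SE, n = 4 a group), and the 4 knockout differences lay below the 4 control ones. For Lgr5 that difference was -0.22 ± 0.30 and for Rnf43 -0.40 ± 0.22, and in both the arrays overlapped. For Gulo it was -0.46 ± 0.12, with the arrays apart. These differences describe the spread within the groups and were not tested, since Rhbg was chosen for its fall.

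Among the knockouts, Rhbg, Gulo and Lgr5 had similar orders. In each of the 3, replicates 1 and 2 were the lowest and replicate 4 the highest. Set against the control mean, Rhbg stood at -1.02, -1.04, -0.81 and -0.68 in NCOR_KO replicates 1 to 4, and Gulo at -0.56, -0.56, -0.34 and -0.26. The steps for Lgr5 were wider, at -1.32, -0.74, -0.31 and -0.29. Rnf43 stood at -0.40, -0.84, -0.40 and -0.32. Its replicate 2 lay apart from the rest, replicates 1 and 3 were level, and replicate 4 was again the highest. In Oat, Slc1a2, Axin2, Tbx3 and Znrf3, by contrast, replicate 1 was the highest knockout, and in Glul replicate 3 was. This comparison was chosen after the values were seen.

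**Figure D3:**
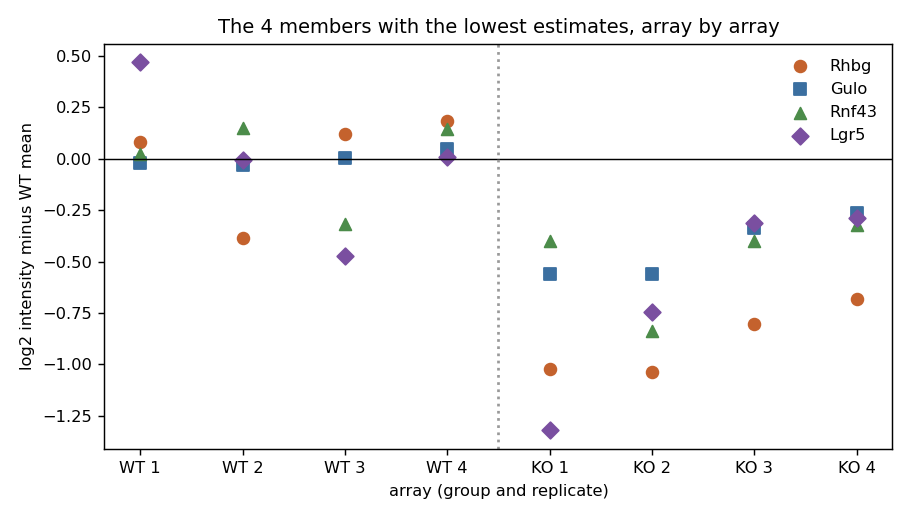
Log2 intensity minus the WT mean (vertical axis) of Rhbg, Gulo, Rnf43 and Lgr5 in each of the 8 arrays. Rhbg and Gulo are below the control mean by more in NCOR_KO replicates 1 and 2 than in 3 and 4, and Lgr5 has its lowest value, -1.32, in replicate 1.

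By likeness of profile over the 8 arrays, measured as the root mean square difference between mean-centred log2 values among 2372 named genes whose range was at least 0.5 of that of Rhbg, the nearest to Rhbg was Spatc1l (0.121). Next came Slc46a3 (0.136), a lysosomal membrane transporter gene, Marveld1 (0.136), Gnpda1 (0.158), which encodes a glucosamine-6-phosphate deaminase, and Fam47e (0.159). Their log2 changes were -0.71, -0.67, -0.69, -0.70 and -0.72, so likeness here goes with a change of similar size. Rnf43 stood at place 252 and Lgr5 at 437 in that order. Gulo was not ranked, because its range of 0.61 log2 units was just under 0.5 of that of Rhbg (1.22). For Glul, whose values spanned only 0.23 log2 units, the nearest of 17471 genes were Igsf3 (0.0267), Inka1 (0.0267), Ephx4 (0.0272), Vstm2a (0.0280) and Araf (0.0316), with changes between -0.02 and 0.02.

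RefSeq promoters (GRCm38.p6) were at hand for 5 of the 10 genes (Glul, Slc1a2, Oat, Axin2 and, with 2 start sites, Rnf43). The 250 bases before each start were searched on both strands for CTTTGAA and CTTTGAT, which follow the core that TCF factors bind. Of all 32851 promoters 7.48% hold at least 1 match. Among the 5 genes it was found in Slc1a2, which did not pass the threshold. Outside the 10, only Cyp1a2, Sp5 and Lect2 were looked up, without a rule for picking them, so they give no share for pericentral genes. Cyp1a2, which fell, holds a match 244 bases before its start. Sp5 (104 bases before) and Lect2 (32 bases before), which did not pass, also hold a match. Both promoters are shown with the matched letters in capitals, written on the strand of the gene: Slc1a2 from chr2:102706188-102706437 on the plus strand, and Cyp1a2 from chr9:57683656-57683905 on the minus strand.
Slc1a2: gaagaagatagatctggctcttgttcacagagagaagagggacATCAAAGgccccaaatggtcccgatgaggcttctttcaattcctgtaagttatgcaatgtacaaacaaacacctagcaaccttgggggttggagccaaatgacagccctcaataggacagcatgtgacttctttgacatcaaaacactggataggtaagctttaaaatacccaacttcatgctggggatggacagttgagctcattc
Cyp1a2: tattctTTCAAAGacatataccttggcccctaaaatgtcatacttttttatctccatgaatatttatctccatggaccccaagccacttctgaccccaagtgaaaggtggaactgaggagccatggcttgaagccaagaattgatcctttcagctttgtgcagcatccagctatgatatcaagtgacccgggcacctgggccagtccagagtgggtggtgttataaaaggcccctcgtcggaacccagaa
The matches describe letters in these windows and say nothing of binding.

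Other pericentral genes of hepatocytes were read from a list of 21, of which 20 were measured. In that list 1 rose, 1 fell and 18 did not pass, with a median log2 change of -0.02. At an unadjusted p under 0.05 there were 7, 2 higher and 5 lower. Cyp1a2, a drug-oxidising cytochrome P450, read 12.49, 12.42, 12.33 and 12.30 in the controls and 11.99, 11.97, 12.16 and 12.09 in the knockouts. All 4 knockouts were lower, and the fall of 0.33 ± 0.07 on the log2 scale (SE, limma adjusted p = 0.0429) was lost in each of the 8 refits without an array (adjusted p from 0.0571 without NCOR_KO replicate 3 to 0.133 without NCOR_KO replicate 2). Cyp2a5, another P450, rose by 0.74 ± 0.15 (adjusted p = 0.0381), a call that was kept without WT replicate 4 (adjusted p = 0.0360) or NCOR_KO replicate 3 (0.0420) and lost without any other array (0.0743 to 0.113). Probe sets of near-identical Cyp2a genes can share signal, so Cyp2a5 is uncertain.

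Further genes of that list are named outside the rule, chosen after their values were seen. Lect2, a secreted hepatocyte protein gene and β-catenin target, was at -0.31 ± 0.08 (limma adjusted p = 0.0935), with its groups apart. Slc13a3, a dicarboxylate transporter gene, was at -0.48 ± 0.15 (adjusted p = 0.156). Cyp2e1, the ethanol-oxidising P450, differed by -0.01 ± 0.05 (adjusted p = 0.922). The feedback inhibitor gene Nkd1 was at -0.02 ± 0.09 (adjusted p = 0.952) and the transcription factor gene Sp5 at -0.06 ± 0.08 (adjusted p = 0.781), so neither of these pathway readouts passed. Sp5 was dimmer than the median gene (mean log2 level 5.51 against 5.88), and Nkd1 lay little above it (6.21).

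Genes of the opposite, periportal zone gave 1 that rose and 0 that fell among 20 measured of 22, and 19 did not pass. At an unadjusted p under 0.05 there were 9, 4 higher and 5 lower. Gldc, a subunit of the glycine cleavage system, read 10.26, 10.71, 10.42 and 10.49 in the controls and 10.97, 11.02, 10.84 and 10.89 in the knockouts, a rise of 0.45 ± 0.09 (SE, limma adjusted p = 0.0402). Each knockout exceeded every control, but the call was kept only without WT replicate 2 (adjusted p = 0.0124) when arrays were left out, and ran from 0.0712 to 0.127 without the others. It was also lost when each array was centred on its median (0.41, adjusted p = 0.0734). The median of the list was -0.01. Genes named outside the rule follow. The apolipoprotein gene Apoa4 was at 0.72 ± 0.16 (adjusted p = 0.0586), a larger difference than that of Gldc, with its groups apart. Of the urea cycle genes Cps1 was at 0.01 ± 0.05 (adjusted p = 0.943), Arg1 at 0.03 ± 0.06 (adjusted p = 0.871) and Ass1 at -0.23 ± 0.15 (adjusted p = 0.512). Hal, which encodes histidine ammonia-lyase, was at -0.14 ± 0.09 (adjusted p = 0.479). Whether periportal and pericentral lists differ was not tested.

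**Figure D4:**
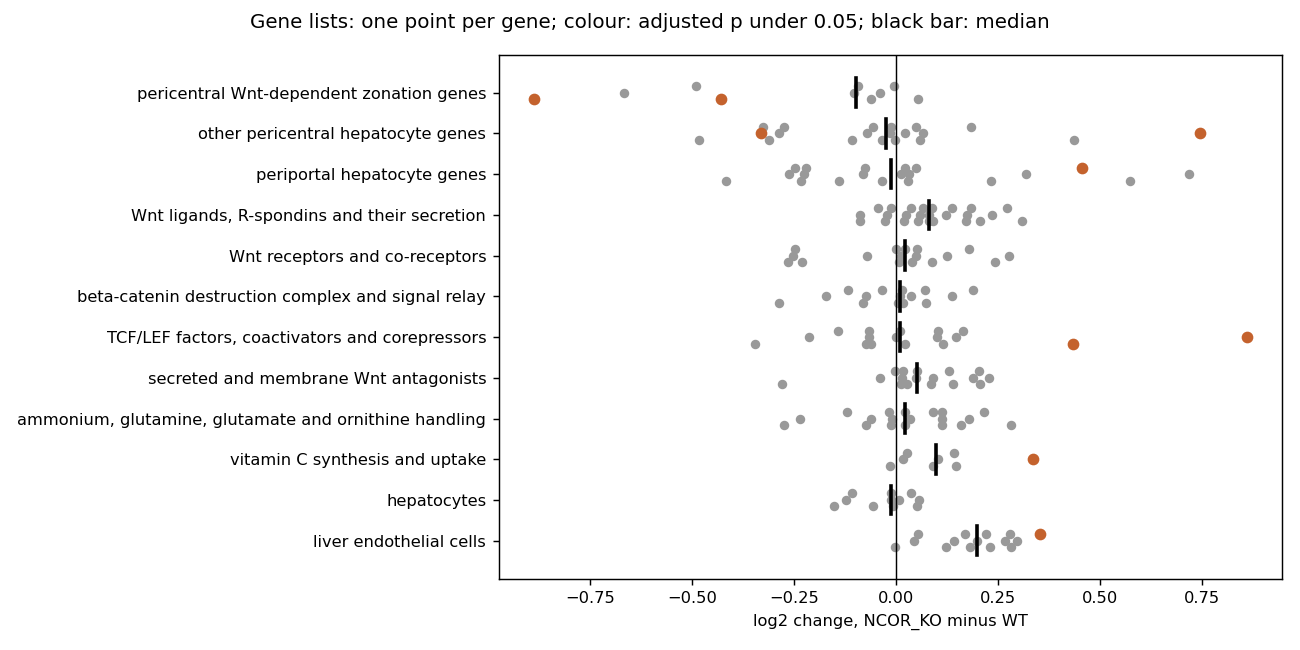
Log2 change (knockout minus control, horizontal axis) of every measured gene in the pericentral list, 9 further lists, and hepatocyte and endothelial markers, coloured where the limma adjusted p was under 0.05, with the median as a black bar. List medians lie between -0.10 (the 10 pericentral genes) and 0.20 (endothelial markers).

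Upstream, the 25 ligand and secretion genes had 0 members past the limma threshold and 3, all higher, at an unadjusted p under 0.05. That level was reached by 15.9% of all genes in either direction. Of the 25, 15 were dimmer than the median gene. Wnt8a had the largest difference (0.31 ± 0.09, limma adjusted p = 0.138). Among ligands of the central vein, named outside the rule, Wnt2 was at 0.23 ± 0.09 (adjusted p = 0.231), Wnt9b at -0.09 ± 0.07 (adjusted p = 0.552) and the R-spondin gene Rspo3 at -0.09 ± 0.06 (adjusted p = 0.529). Of the 17 receptors 0 passed (5 at an unadjusted p under 0.05, 2 higher and 3 lower), with Fzd6 farthest from 0 (0.28 ± 0.08, adjusted p = 0.144). The R-spondin receptor gene Lgr4, named outside the rule, was at -0.25 ± 0.07 (adjusted p = 0.132), and its knockouts all lay below its controls.

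Inside the cell, 0 of 15 measured genes of the destruction complex and signal relay passed. An unadjusted p under 0.05 was reached by 3, 1 higher and 2 lower, and by 15.9% of all genes in either direction. Amer1, which recruits APC to the membrane, was lowest at -0.29 ± 0.07 (limma adjusted p = 0.0708), and it passed when the dimmer genes were left out of the test (adjusted p = 0.0414). Ctnnb1, the gene for β-catenin, named outside the rule, was at -0.07 ± 0.06 (adjusted p = 0.562). Among 17 measured TCF factors and cofactors 2 rose and 0 fell. These were Tbl1xr1 (0.86 ± 0.08) and Tbl1x (0.43 ± 0.08), WD-repeat proteins of the NCOR complex that also bind β-catenin. With an array left out, Tbl1x passed only without WT replicate 2 (adjusted p = 0.0309, against 0.0572 to 0.109 without the others), and it missed when each array was centred on its median (0.39, adjusted p = 0.0582). At an unadjusted p under 0.05 the list had 3, these 2 and 1 lower. Tcf7l2, the main TCF factor of liver and also named outside the rule, was at -0.07 ± 0.07 (adjusted p = 0.662). Of 17 antagonists 0 passed and 4 reached an unadjusted p under 0.05, with Notum, a Wnt deacylase and pathway target, at -0.28 ± 0.09 (adjusted p = 0.171), or -0.13 with the mean of its rows (adjusted p = 0.469). The other 3 were higher, and 14 of the 17 estimates were above 0. Of the 17 antagonists, 12 were dimmer than the median gene.

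The metabolic neighbours of Rhbg and Gulo were read in the same way. Of 19 measured genes for handling ammonium, glutamine, glutamate and ornithine 0 passed. An unadjusted p under 0.05 was reached by 6, 4 higher and 2 lower, where 15.9% of all genes reached it in either direction. Slc1a4, a neutral amino acid transporter gene, lay farthest from 0 (0.28 ± 0.10, limma adjusted p = 0.190). Slc38a3, a glutamine transporter gene named outside the rule, was at -0.01 ± 0.05 (adjusted p = 0.947). In the vitamin C list 1 of 8 measured genes rose and 0 fell. The riser, the glucose transporter gene Slc2a1, was at 0.34 ± 0.07 (adjusted p = 0.0373), but 0.06 with the mean of its rows (adjusted p = 0.757), and with an array left out it passed only without WT replicate 2 (adjusted p = 0.0214, against 0.0723 to 0.0989 without the others). With each array centred on its median Slc2a1 was at 0.29 (adjusted p = 0.0855). The list had 2 genes, both higher, at an unadjusted p under 0.05. The synthesis genes Ugdh (0.09 ± 0.11, adjusted p = 0.746) and Akr1a1 (0.02 ± 0.07, adjusted p = 0.932), also named outside the rule, did not pass.

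Markers of other liver cells were read beside these values. Endothelial markers had estimates above 0 in 14 of 15 cases, with a median of 0.20. Robo4 alone of them passed (0.35 ± 0.07, limma adjusted p = 0.0429). At an unadjusted p under 0.05, which 15.9% of all genes reached in either direction, 9 of the 15 were higher and 0 lower. Knockouts lay wholly above controls for 4 of the 15, against 4.9% of all genes. The summed intensity of the endothelial markers ran from 7960 to 9554 in the controls and from 9375 to 10821 in the knockouts. Cholangiocyte markers were above 0 in 7 of 7 measured (median 0.24, with Epcam past the threshold and 4 at an unadjusted p under 0.05, summed intensity 375 to 392 against 433 to 501). Of these 7, 4 were dimmer than the median gene. In the lymphocyte list 2 of 10 measured rose, Cd79a and Cd3e, and 4 were higher at an unadjusted p under 0.05, with summed intensity 377 to 395 against 424 to 480, and 9 of the 10 were dimmer than the median gene. Kupffer cell markers (2990 to 5743 against 3563 to 6229) and stellate cell markers (4932 to 5405 against 4829 to 5703) overlapped between groups and had 0 members past the limma threshold, also at an unadjusted p under 0.05. Summed hepatocyte markers ran from 77441 to 79543 in the controls and from 76804 to 78388 in the knockouts. The part of other cell types in the falls of Rhbg and Gulo was not tested.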

How the data were processed

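The authors deposited 1 intensity for each probe set and array, never negative and not on a log scale. RMA and Partek are the tools named, per the submitters' processing notes; their roles, versions and genome build are not given in the sources used here. The intensities, 5.42 to 13268, were taken to log2 with no further normalization. Of 41345 probe sets, 23521 had a single assigned gene, 1814 had several and 16010 had none; the last 2 kinds were left out. For the 1082 genes with more than 1 row the brightest by mean over 8 arrays was used, which gave 22180 genes; dim genes were not removed.

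Knockout and control arrays were fitted with limma 3.58.1 (R 4.3.3; lmFit and eBayes, intercept and group), with Benjamini-Hochberg adjustment over all genes and a threshold of 0.05. SE, intervals and adjusted p-values come from that fit unless another setting or set of rows is named. The SE of a difference between Rhbg and another gene comes from the spread within each group, without limma. It was tested on simulated data. From each of 9 lists up to 3 genes past the threshold with the largest change were named; a list with no such gene gave the 1 farthest from 0. The members and lists were chosen with earlier results of these data known. Alternatives were other normalizations, variance models, filters and thresholds, the replicate number as a block, and each array left out. Same-numbered arrays did not deviate together (correlations -0.0935, 0.00699, 0.0167 and -0.0643), so the numbers were not used as pairs. Figures were drawn with matplotlib 3.10.9. Red blood cell markers had 0 measured genes.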

Additional observations from a re-analysis of the deposited data

Results flagged for a closer look

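Among the 20 groups of 4 arrays behind the 10 pericentral genes, 1 held an array far from the other 3, and chance gives about 1 such group in 20. Rnf43 in NCOR_KO replicate 2 read 7.49, where the next lowest knockout read 7.93, a gap that took up 0.850 of the group's range, above Dixon's critical value. Without that array the log2 change of Rnf43 was -0.38 (limma adjusted p = 0.202). Among the 22 groups behind the 11 genes named from the other lists, Slc1a4 in NCOR_KO replicate 1 read 6.56, above the next knockout at 6.21.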

How the results depend on the processing

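Rhbg kept its fall and its call under all 17 alternatives and without WT replicate 2 and NCOR_KO replicate 1 together, a setting chosen after seeing the data. The count of pericentral genes that passed, 2, became 1 with the replicate block, at an adjusted p under 0.01 and without those 2 arrays together, and was 1 to 2 when single arrays were left out; Gulo was the gene lost each time (adjusted p = 0.0523 with the replicate block and 0.0834 without those 2 arrays). The replicate block also ended the calls of Cyp1a2 (adjusted p = 0.128), Gldc (0.0633) and Slc2a1 (0.106). Rnf43 passed only at an adjusted p under 0.1. The direction turned for 2 genes: Axin2 was at 0.0169 with the mean of its rows, and Glul at 0.0358 without WT replicate 4 and 0.0115 without NCOR_KO replicate 2; without single arrays it ran from -0.0415 to 0.0358. Over all genes 366 passed (181 higher, 185 lower). The count was 551 when genes dimmer than the median gene were left out, 155 with the replicate block, 88 and 807 at thresholds of 0.01 and 0.1, 202 without those 2 arrays, and 120 to 297 without single arrays. Centring each array on its median gave 147 higher and 383 lower. The control medians lay below the knockout medians, that of WT replicate 2 lowest (5.78), so centring lowered the change of every gene by the same amount. Where samples were left out fewer arrays were fitted; otherwise the cause was not tested.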
